A study of Mus musculus with 6 samples.

Results

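The genes described here are 125 spermatogenic and sperm flagellum genes among the 10580 genes that the deposited table of mouse Leydig cell RNA lists. They were taken by gene name: protamines and transition proteins, acrosome proteins, outer dense fibre and sheath proteins, axonemal dyneins and tektins, CatSper channel subunits, Tssk kinases, meiotic chromosome proteins, PIWI and Tudor proteins, and the numbered Spata, Spag and Tex genes, with Ldhc left out. The naming rule uses no level, but it was written with earlier results of these data known.

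The RNA came from 2 groups of sorted testis cells, with 3 libraries each. FLCs are fetal Leydig cells of male embryos at E18.5, and ALCs are adult Leydig cells of males at P100. Both groups carried a heterozygous Nr5a1-GFP transgene, which also labels Sertoli cells, and only the brightest GFP-positive cells were collected, with doublets and dead cells gated out. Fetal cells of several sorts were pooled to reach enough RNA. Adult testes were enriched for interstitial cells by letting the tubules settle before sorting, while whole fetal testes were dissociated. The labels name no treatment.

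Leydig cells lie between the seminiferous tubules and make androgens. Inside the tubules, germ cells pass through meiosis and then, as spermatids, replace histones by transition proteins and protamines, form an acrosome and build a flagellum. Its axoneme of microtubules and dynein motors is wrapped by outer dense fibres, a mitochondrial sheath and a fibrous sheath. Germ cells reach the spermatid steps only after birth.

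For each gene the table gives 1 level, the authors' mean across the 6 libraries of read counts scaled by size factors, given here as normalized counts. It mixes FLCs and ALCs, so it carries no spread, no number of replicates of its own and no direction between stages, and no test was made. Neighbours in an order of levels therefore cannot be said to differ. Since 3 of the 6 libraries belong to each stage, neither stage's mean can exceed 6382.9 normalized counts for Prm2, 2995.6 for Prm1 or 26.6 for Dnah14. These are arithmetic limits and not estimates. The table holds only genes below a limit on the adjusted value of the authors' comparison between the stages, a looser limit than the study states for its own calls, so genes of the same families that it does not list were not analysed here. In such bulk RNA, fewer cells of a type and less RNA per cell cannot be told apart.

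Markers of Leydig cells were abundant. All 5 Leydig markers fixed for the check were listed, between 87502 normalized counts for Star, which brings cholesterol into mitochondria, and 283675 for Cyp17a1, an androgen synthesis enzyme. Their sum was 20.5 times that of all 125 sperm genes. Of 6 Sertoli cell markers, 4 were listed, from 15.8 for Rhox5 to 396 for Gata1, with Amh at 137. Of 15 spermatogonial markers, 4 were listed, from 4.91 for Id4 and 14.8 for Dmrt1 to 669 for Zbtb16 and 20797 for Kit, a receptor that Leydig cells also express. Being listed depends on the adjusted value of the comparison between the stages and not on detection. These counts therefore do not show which markers were present, and the share listed among all genes tested was not worked out. The part of germ cell RNA in these libraries was not tested.

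Most of the sperm genes were low. Their median was 112 normalized counts, against 679 over all listed genes, and 105 of the 125 lay below that value. At or above 100 normalized counts were 65 members (52.0%), compared with 77.0% of all listed genes. At or above 1000 were 17 members (13.6%), compared with 41.3%. The 125 genes together made up 0.225% of the summed level of all listed genes.

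**Figure D1:**
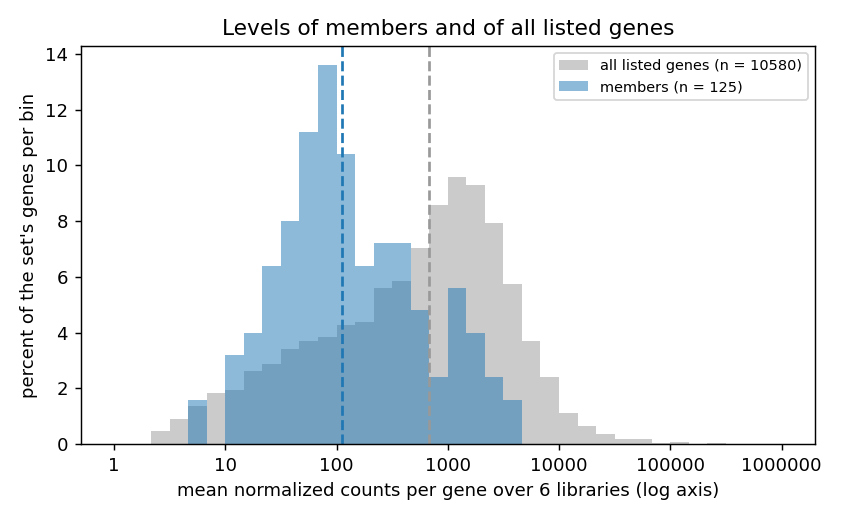
Histogram of the mean normalized count per gene over the 6 libraries (log axis) for the 125 members (blue) and all 10580 listed genes (grey), as percent of each set per bin, with dashed lines at the medians. The members centre near 112 and all listed genes near 679, and no member exceeds 3865.

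The highest levels belonged to genes of unlike kinds. Odf2, an outer dense fibre protein that other cells use at the centriole, led with 3865 normalized counts, followed by Prm2 at 3191, Dnah2 at 2931, Tex264 at 2816 and Tex261 at 2791. These 5 genes held 31.2% of the summed level of all members. Tex2 at 2107, Tex10 at 1927, Tdrd7 at 1683, Spata2 at 1642 and Prm1 at 1498 completed the first 10. Of these 10, 7 (Odf2, Tex264, Tex261, Tex2, Tex10, Tdrd7 and Spata2) are on a list of members that many somatic tissues use. Tex264 serves in autophagy of the endoplasmic reticulum, Tex2 in lipid transfer and Spata2 in ubiquitin signalling. The 10 listed members of that kind had a median of 1805, with Spata7 lowest at 334, Spag5, a spindle protein, at 367 and Tdrd3 at 812. The other 115 members had a median of 96.8. The list named 17 genes and was written with earlier results of these data known. The 115 are only the members not on it, and whether somatic tissues use them was not tested.

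Long genes collect more reads per transcript than short ones, so genes were compared with each other per kilobase of exonic sequence. Lengths were taken from a GENCODE annotation of GRCm38 for 124 of the 125. The study names another version of that annotation for its counts, so the exons measured and the exons counted may differ. Scaled by these lengths, the members had a median of 35.9 normalized counts per exonic kb, against 147 over all listed genes. Of the 124, 91 lay below the latter.

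**Figure D2:**
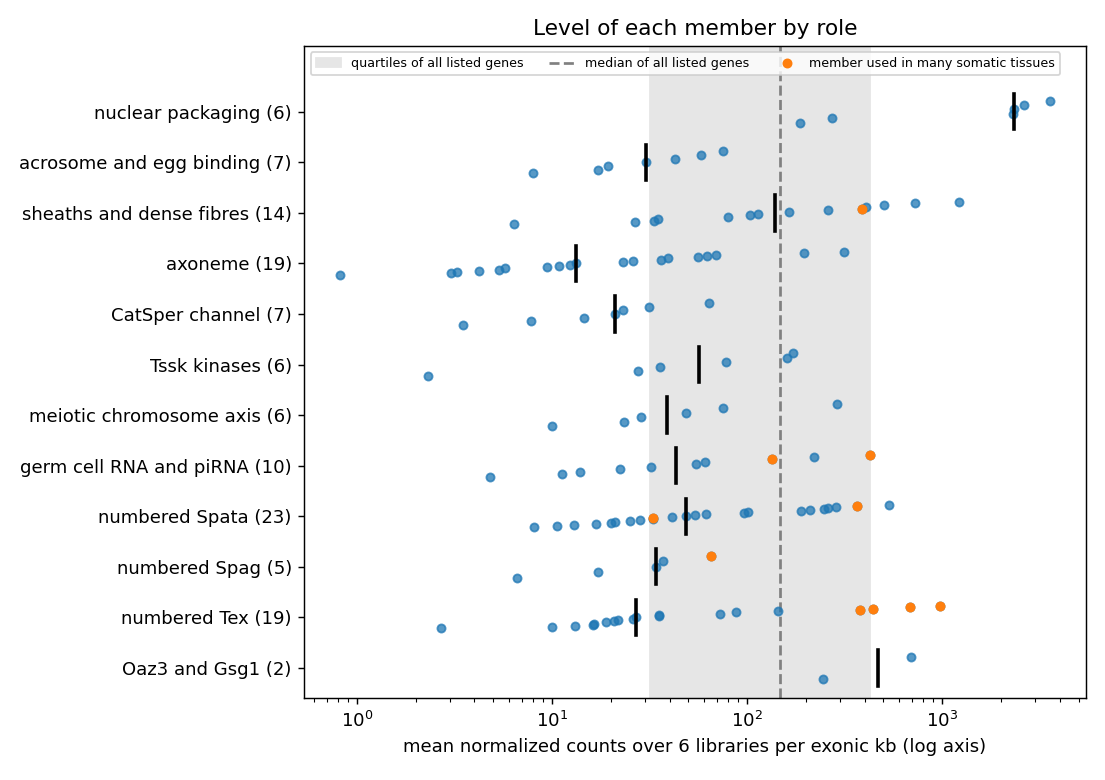
Level per exonic kilobase (normalized counts, mean over 6 libraries, log axis) of each member with a length, by role, with the number of genes in brackets, black bars at the class medians, orange points for members used in many somatic tissues, and the quartiles and median of all listed genes in grey. Nuclear packaging stands at a median of 2321 per kb, and the axoneme at 13.3.

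Nuclear packaging genes led per length. Prm2 reached 3570 normalized counts per exonic kb, Prm1 2623, Tnp2 2341 and Tnp1 2301, which placed all 4 above 96% of listed genes. Per coding kb Prm2, Prm1 and Tnp1 again led the members, while Tex261 at 4746 lay above Tnp2 at 3694. Prm1 and Prm2 encode the protamines that condense sperm DNA, and Tnp1 and Tnp2 encode the transition proteins that precede them. Hils1, a linker histone of spermatids, followed at 272 per kb and Prm3, a protamine-like gene, at 186. All 6 members of the class lay above the median of all listed genes per kb. On the unscaled level the class ran from 76.3 for Prm3 to 3191 for Prm2, with 1296.6 for Tnp2, 1006 for Tnp1 and 235 for Hils1.

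The 3 protamine genes and Tnp2 sit side by side on the minus strand of chromosome 16 (GRCm38, chr16:10787936-10805839), in the order Tnp2, Prm3, Prm2 and Prm1. Tnp1 lies apart, at chr1:73015074-73015909 on the minus strand, where an exon of 1700027A15Rik overlaps it on the other strand. Levels within the chromosome 16 cluster were unequal, Prm3 being lowest and Prm2 highest on both scales. Coding sequences of Prm1 and Tnp1 (GENCODE vM21, 5′ to 3′, stop codon left out) are printed because they lie behind high levels per length and show the arginine codons, in capitals, of these short basic proteins.
Prm1: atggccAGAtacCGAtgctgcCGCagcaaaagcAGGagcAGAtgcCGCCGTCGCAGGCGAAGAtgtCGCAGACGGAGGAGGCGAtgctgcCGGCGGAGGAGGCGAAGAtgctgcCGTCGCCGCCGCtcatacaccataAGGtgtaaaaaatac
Tnp1: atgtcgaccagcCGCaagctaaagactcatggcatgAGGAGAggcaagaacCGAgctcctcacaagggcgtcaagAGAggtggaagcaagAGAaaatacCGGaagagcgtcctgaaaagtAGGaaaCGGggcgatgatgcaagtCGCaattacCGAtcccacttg

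Prm1 had 28 arginine, 3 lysine and 9 cysteine codons among 51. Tnp1 had 11 arginine and 10 lysine codons among 55, and no cysteine codon. Arginine and lysine together took 60.8% of the codons of Prm1, 38.3% of Prm2, 38.2% of Tnp1, 23.1% of Tnp2 and 18.2% of Hils1. Among the 10409 listed genes with a complete coding sequence, Prm1, Prm2 and Tnp1 held the 3 highest values of this share. Prm3 differed from the other protamines in sequence as in level, with 8.91%, which is below the 11.3% median of listed genes. Over all 123 members with a coding sequence the median was 12.2%.

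**Figure D3:**
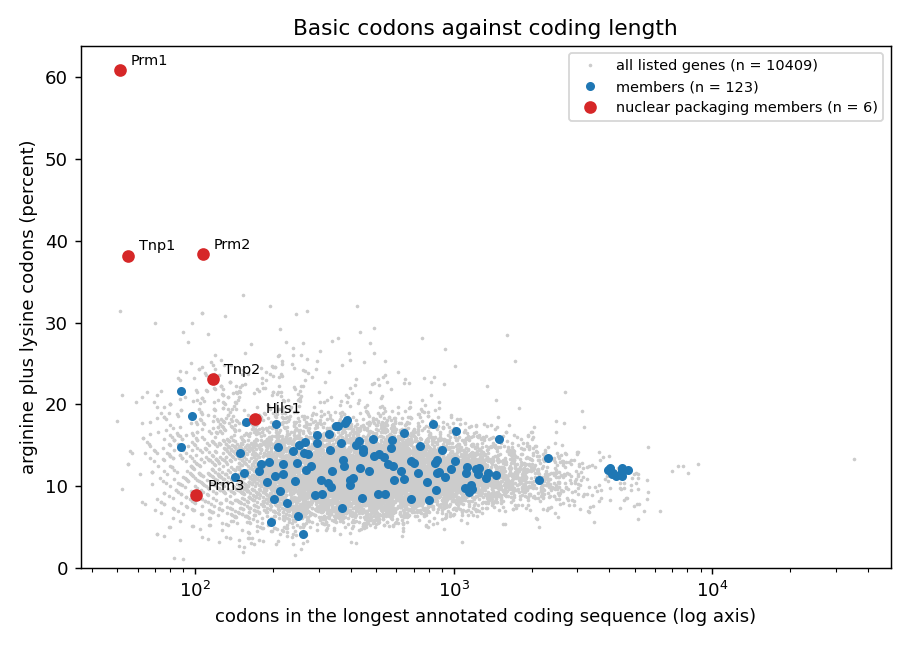
Share of arginine plus lysine codons (percent) against the number of codons (log axis) for listed genes (grey), members (blue) and nuclear packaging members (red, named). Prm1 stands alone at 60.8%, Prm2 and Tnp1 lie near 38%, and Prm3 lies inside the grey cloud.

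Sheath and dense fibre genes formed the class with the next highest median among those with more than 2 members, 139 normalized counts per exonic kb over 14 genes, 7 of them above the listed median. Smcp, a cysteine-rich protein of the sperm mitochondrial capsule, stood at 1218 per kb (1112 per gene). Odf1, a main protein of the outer dense fibres, stood at 729 per kb. Akap4 and Akap3, the scaffolds of the fibrous sheath that bind protein kinase A, stood at 408 and 163 per kb, and Akap4 is X-linked. Ropn1l, Spa17 and Ropn1, which carry the kinase's docking domain, stood at 500.2, 259 and 104 per kb. Odf2, with 9919 exonic bases, stood at 389.6 per exonic kb, below Smcp and Odf1, but per coding kb it lay above Odf1, at 1552 against 1083. Pmfbp1, a head-to-tail coupling protein, stood at 114 per kb. The lower end held Odf4 at 79.5, Odf2l at 34.8, Odf3 at 33.2, Odf3l1 at 26.6 and Odf3b at 6.40 per kb.

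The axoneme class, set by gene name, held the dynein chains, the tektins and Meig1, while the Spag genes formed a class of their own. It had the lowest median of all classes per length, 13.3 normalized counts per exonic kb over 19 genes. Only Meig1 and Dnah2 lay above the listed median. Dynein heavy chains are the motors that bend the axoneme, and each is encoded by a very long transcript. Dnah2, an inner arm chain, stood at 196 per kb (2931 per gene), and the next heavy chains were Dnah17 at 26.0 and Dnah8 at 23.1 per kb, both outer arm chains of sperm. Dnah9 stood at 13.3, Dnah1 at 9.37, Dnah6 at 5.76, Dnah3 at 5.34 and Dnah12 at 4.21 per kb. Dnah7a and Dnah7c stood at 3.27 and 3.02, and Dnah14 was lowest of all members at 0.818 per kb. The intermediate chains Dnaic1 and Dnaic2 stood at 12.4 and 10.8 per kb. The tektins, filament proteins along the doublet microtubules, lay close together, with Tekt1 at 69.6, Tekt2 at 62.3, Tekt4 at 56.1, Tekt3 at 39.1 and Tekt5 at 36.0 per kb. Meig1, which serves manchette transport in spermatids, was highest at 314 per kb. Dnah2 was thus the heavy chain that stood apart. An exon of the gene Dnah2os overlaps it on the other strand, and the part of that gene's reads in the level was not tested.

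**Figure D4:**
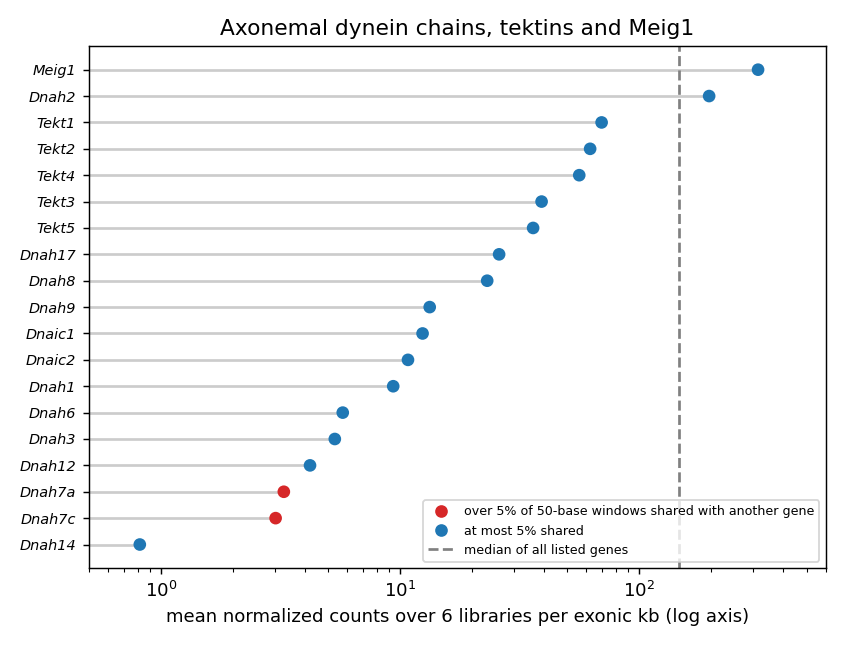
Level per exonic kilobase (normalized counts, mean over 6 libraries, log axis) of the 19 axoneme members, with the median of all listed genes dashed and genes that share over 5% of their 50-base windows with another gene in red. Meig1 and Dnah2 lie above the dashed line, the 5 tektins lie between 36.0 and 69.6, and 10 of the 11 heavy chains lie at or below 26.0.

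Acrosome and egg-binding genes were low throughout, with a median of 30.4 normalized counts per exonic kb over 7 genes and none above the listed median. Acrbp, which binds proacrosin, led at 75.1 per kb, followed by Zpbp2 at 58.1, Izumo2 at 42.5, Izumo3 at 30.4, Zpbp at 19.4 and Acrv1 at 17.2. Izumo1, the sperm protein that binds the egg receptor Juno, was lowest at 7.96 per kb, or 23.8 normalized counts per gene.

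CatSper genes encode the calcium channel of the sperm tail. Their median was 20.9 per exonic kb over 7 genes, and none lay above the listed median. Catsper2 led at 63.6 per kb, then the auxiliary subunit Catsperd at 31.3, and the pore subunits Catsper1, Catsper3 and Catsper4 at 23.2, 20.9 and 14.6. The auxiliary subunits Catsperg2 and Catsperb stood at 7.79 and 3.49 per kb. Exons of Catsper2 overlap Pdia3 on the other strand, a chaperone gene listed at 64.8 times the level of Catsper2.

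The 6 Tssk genes, kinases of spermatids, had a median of 56.8 per exonic kb. Tssk2 stood at 172 and Tssk6 at 160 per kb, both above the listed median. Tssk3 followed at 77.6, Tssk1 at 35.9, Tssk4 at 27.6 and Tssk5 at 2.31 per kb. Tssk5 had 4.78 normalized counts per gene, or 28.7 summed over the 6 libraries. Tssk1 and Tssk2 are neighbours on chromosome 16 (chr16:17894223-17900024), and Tssk1, Tssk2 and Tssk6 have a single exon, as do Hils1 and Prm3. Dgcr2, which overlaps Tssk1 on the other strand, was listed at 34.5 times its level, and Ndufa13, which overlaps Tssk6, at 15.8 times.

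Meiotic members had a median of 38.6 per exonic kb over 6 genes. Syce2 and Syce1, central element proteins of the synaptonemal complex, stood at 290.1 and 74.9, and Stag3, a meiotic cohesin, stood at 48.5. Meiob, which binds single-stranded DNA in recombination, stood at 28.7, Syce3 at 23.5 and Sycp2, an axial element protein, at 9.94 per kb. Only Syce2 lay above the listed median.

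Germ cell RNA-binding, PIWI and Tudor genes had a median of 43.4 per exonic kb over 10 genes. The 2 above the listed median were Tdrd7 at 425, which many tissues use, and Mael, a piRNA pathway protein, at 220. Tdrd3, also used in many tissues, stood at 134. Ddx4, the germ cell helicase used as a germline marker, stood at 61.1 per kb and 184 normalized counts per gene. Tdrd6, a chromatoid body protein, stood at 54.8 per kb. The PIWI genes, whose proteins bind piRNAs, stood at 32.0 for Piwil1, 22.4 for Piwil4 and 13.9 for Piwil2, and Tdrd1 and Tdrd12 at 11.3 and 4.81 per kb.

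The numbered Spata, Spag and Tex genes share little but a name. Among 23 Spata genes the median was 48.4 per exonic kb. The 5 with the highest level per gene were Spata2 (1642 normalized counts), Spata6 (1178), Spata20 (745), Spata21 (653) and Spata24 (536), of which Spata6 serves the sperm head-to-tail junction. The lowest was Spata45 at 12.7 normalized counts per gene. Per exonic kb Spata24 was the highest Spata gene, at 534. Among 5 Spag genes the levels per kb were 65.2 for Spag5, 37.2 for Spag6, 34.2 for Spag17, 17.3 for Spag1 and 6.62 for Spag16, and Spag6, Spag16 and Spag17 are central apparatus proteins of the axoneme. Among 20 Tex genes, Tex264, Tex261, Tex2 and Tex10 held the 4 highest levels per gene, and Tex9 followed at 184 normalized counts. Per exonic kb Tex9 stood at 20.9, below the class median of 27.0. Tex24 was lowest of all members per gene, at 4.77. Gsg1 and Oaz3, a spermatid antizyme that restrains polyamine synthesis, stood at 690.5 and 244 per exonic kb.

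Other genes of sperm and germ cells were taken from further lists of names. Some genes stand there under alternative names, such as Sept12, also entered as Septin12, so the names outnumber the genes. Dnai1 and Dnai2 among the flagellum names are the members Dnaic1 and Dnaic2. Being listed depends on the comparison between the stages. Names not listed therefore do not count genes that are absent. Of 18 further acrosome names 16 were listed. Their median was 34.9 per exonic kb, near the 30.4 of the acrosome members, and Acr, the acrosin protease, stood at 49.0. Of 39 flagellum names 28 were listed. Their median was 29.5 per kb, against 139 for the sheath and 13.3 for the axoneme members. Sord was highest of them at 721 per kb, and whether somatic cells use it or other genes of these lists was not tested. The sperm glycolytic enzyme Gapdhs stood at 525 and the central apparatus protein Hydin at 7.29. Of 22 further meiotic names 8 were listed. Their median was 13.0 per kb, below the 38.6 of the meiotic members, and Spo11, which makes meiotic breaks, stood at 2.40. Of 13 names for regulators of spermatid genes 9 were listed, with a median of 62.5 per kb. These included Ybx2, which binds stored spermatid mRNA, at 422 and Crem, whose product activates genes in spermatids, at 80.5 per kb. Ldhc, the testis lactate dehydrogenase outside the named set, stood at 727 per kb.

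Some members share stretches of sequence with other genes. Reads were pairs of 50 bases, and of 123 members compared with all annotated transcripts, 108 shared no 50-base window of their coding transcript with another gene while 10 shared over 5%. Shares were 48.5% for Dnah7c and 40.3% for Dnah7a, both with Dnah7b, 41.0% for Catsperg2 with Catsperg1 and 57.0% for Spata24 with a second annotation of the same name in capitals. They were 32.7% for Tex24, 25.8% for Acrbp, 25.0% for Spata31d1a, 24.9% for Spata31d1b, 14.6% for Catsperb and 9.34% for Tssk2. How the authors counted reads that fit several genes is not given in the sources used here, so these 10 levels are uncertain, although each gene also has windows of its own. The first identical coding window inside 1 exon is shown for 4 pairs, on the strand of the gene (GRCm38), since a single read from it fits either gene.
Spata31d1a and Spata31d1b (chr13:59706101-59706150 in the former, minus strand): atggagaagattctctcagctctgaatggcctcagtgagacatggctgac
Dnah7a and Dnah7b (chr1:53640359-53640408 in the former, minus strand): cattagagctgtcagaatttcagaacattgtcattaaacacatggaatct
Catsperg2 and Catsperg1 (chr7:29725393-29725442 in the former, minus strand): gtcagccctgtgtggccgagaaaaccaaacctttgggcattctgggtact
Tssk2 and Tssk1 (chr16:17899105-17899154 in the former, plus strand): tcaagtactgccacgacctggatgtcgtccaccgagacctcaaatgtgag

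The windows shown are 1 of 1024 such windows in Spata31d1a, 2720 in Dnah7a, 801 in Catsperg2 and 125 in Tssk2. Exons of 3 members overlapped another gene on the same strand, and those of 31 overlapped a gene on the other strand. The library kit keeps strand, but whether counting used it is not given in the sources used here. Only 10 members overlapped a gene that was itself listed. In 8 of these 10 that gene stood at a higher level than the member, namely Catsper2, Tssk1, Tssk6, Oaz3, Spata2, Izumo1, Dnah3 and Dnaic1. Overlapping genes that are not listed have no level here, so their part in the other members' levels is unknown.

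Promoter sequence was matched for 108 members (RefSeq, GRCm38.p6, 250 bases before to 50 after a start, any start of a gene counting). For CpG pairs, the window with the most was taken for each gene, so genes with more starts can score higher. By this count the members had a median of 10 per gene against 20 over 7928 listed genes. At most 3 were held by 27.8% of members, against 8.56%. The cyclic AMP response element TGACGTCA, searched on both strands like the others, was in the windows of 3 of 108 members (2.78%), against 3.14% of listed genes and 2.03% of all 27025 genes with a window. Its part TGACG, which every full element contains, was in 23.1%, against 31.5% of listed genes and 23.0% of all genes. GTTGCC, a core of the X-box read by RFX factors, was in 21.3%, against 15.7% and 14.1%. CCAAT was in 38.0%, against 42.2% and 41.1%, and TATAAA was in 8.33%, against 9.31% and 15.7%. The full elements of the 3 members are shown with their flanks, element in capitals, on the strand of the gene.
Dnah6 (in the window chr6:73221582-73221881): ctgacaactaaTGACGTCAaatactctggg
Izumo1 (in the window chr7:45621561-45621860): ctgccaccctaTGACGTCAcgatgggatgg
Spata7 (in the window chr12:98627892-98628191): tccctgtgttgTGACGTCAtaatctgcagc

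Dnah6 and Izumo1 were low, at 5.76 and 7.96 normalized counts per exonic kb, and Spata7 stood at 33.1. None of the packaging genes that led the order per length was among the 3 members with the full element. Windows were matched for 108 of the 125 members, and which packaging genes had one is not given here. The absence therefore says only that these letters were not found in the windows searched. The members lay on 19 chromosomes. Chromosome 11 held 15 of 124 (12.1%), against 8.08% of listed genes, and the X held 2 (1.61%), against 3.73%.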

How the data were processed

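Total RNA of strong Nr5a1-GFP-positive testis cells was sequenced as 50-base read pairs, from libraries that the labels describe as ribosomal RNA-depleted and stranded, whereas the study's results text names poly(A) RNA. The authors demultiplexed the reads with CASAVA 1.8.2 and mapped them with GemTools. Reads were counted for each gene by the authors' own pipeline with a GENCODE annotation of GRCm38, and genes under 10 reads were left out. The signal deposited by the authors is DESeq2's mean, across the 6 libraries, of read counts scaled by size factors, and it is the only measurement used.

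Further columns hold the authors' comparison of ALCs with FLCs (log2 fold change, its standard error, statistic, p-value and adjusted p-value). They were not used, except to check that all 10580 rows have an adjusted p below 0.05, a looser limit than the study states for its own calls. A deposited sheet of library names showed that lane partly followed stage. The summed signal was 22228751 over the listed genes, and depth per library is unknown, so no interval or counting limit is given.

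Symbols were looked up in GENCODE vM21 (GRCm38). Of the listed genes 10223 were found directly, 300 through an older symbol in the RefSeq table, and 57 were not found. Of the members, Tex40 was not matched and Tex43 had no complete coding sequence. Exonic length is the union of a gene's exons, and coding length is that of the longest complete coding sequence. Both come from vM21, which is not the version that the study names for its counts. Shared windows are 50-base stretches of the coding transcript found in a transcript of another gene. Scripts ran in Python 3.11.15 with pandas 2.3.3, numpy 2.4.6 and matplotlib 3.10.9, and the motif and length functions were tested on simulated sequences. Genes named in the text are the 10 highest members, all members of the 8 role classes from packaging to PIWI and Tudor genes, the highest and lowest of each class, the 5 highest Spata, Spag and Tex genes, and the members used in many somatic tissues. Genes named for overlap, shared windows or a motif, and examples from the further lists, were chosen after their values were seen. Members and lists were chosen with earlier results of these data known.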

Additional observations from a re-analysis of the deposited data

How the results depend on the processing

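Of 49 alternative values, 43 moved by at most 1.5 times or stayed within the 95% Wilson interval of a motif's share. The median level of the members stayed between 95.3 (80 members free of overlaps and shared windows, an alternative chosen after seeing the data) and 137 (geometric mean), against 112. As a ratio to all listed genes it was 0.166 per gene, 0.244 per exonic kb and 0.179 per coding kb. The members at or above 100 normalized counts were 65, against 94 at 50 and 46 at 200. Of the 10 highest members per gene, 4 were among the 10 highest per exonic kb and 5 per coding kb. With promoter windows from 100 bases before to 50 after the start, TGACG was in 13.9%, CCAAT in 18.5% and TATAAA in 2.78% of members, as follows from fewer bases searched. Arginine codons alone had a median of 5.37%, against 12.2% with lysine. No paired analysis was possible because the table holds no value per library, and for the same reason no library was left out.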
